A study of Rattus norvegicus with 42 samples.

Results

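Retinas of rats that had received an injection into the vitreous of the eye were compared with retinas of rats that had received none, with no damaging light in either arm. The groups were taken from the labels: all unexposed libraries of the series, 14 of the 31 with counts, entered the comparison, 9 of them injected and 5 untreated. Of the injected animals, 5 libraries came from rats given the vehicle alone and 4 from rats given 1 mM nanoceria, particles of cerium oxide that can scavenge reactive oxygen species. All animals were adult rats. The sources used here do not give strain, age in weeks, sex or the time between injection and dissection. The untreated rats had no needle in the eye, so the puncture, the injected fluid, handling and the particles cannot be told apart in the pooled contrast, and vehicle and nanoceria libraries are also given separately. A further 17 libraries, from light-exposed rats (15000 lux for 24 h) without injection, with vehicle or with nanoceria, served as a second, separate comparison of injected with uninjected eyes.

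An intravitreal injection passes a needle through the wall of the eye into the gel that fills it, next to the retina and behind the lens. The retina holds its own immune cells, the microglia, which survey the tissue and take up debris, and Mueller glia, which span it and change their expression after injury. Blood leukocytes are normally kept out by the blood-retinal barrier. Microglia and Mueller cells are sources of complement proteins and of chemokines in the injured retina, and injury of the lens or retina is known to raise glial growth factors.

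Vehicle replicates 4 and 7 were near-identical. The dispersion between their counts was 0.000767, against a median of 0.0443 and a range of 0.024 to 0.148 over the other pairs of unexposed libraries of 1 group. Their counts differed 2.5 times as much as sampling noise alone would give, against 13.2 to 95.4 times in those other pairs. They were summed and counted as 1 sample, which left 4 vehicle, 4 nanoceria and 5 control libraries, and light damage replicates 4 and 7, with a dispersion of 0.00157, were treated the same way. Total counts per unexposed library ran from 73369026 to 121336562 before that sum. Y-linked transcripts were high (80.3 to 92.3 CPM, that is, counts divided by the library total in units of 1e6) in 4 of 5 control, 1 of 4 vehicle and 2 of 4 nanoceria libraries and low (1.57 to 4.24 CPM) in the others, so the sexes were unevenly spread over the arms. Gnat1, the transducin of rods and a defining gene of the retina, was abundant in all libraries, at 7520 CPM or more.

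Injection changed few genes at the set threshold. With edgeR's quasi-likelihood test on 17344 genes, 11 genes were higher (0.0634% of those tested) and 5 lower (0.0288%) in the 8 injected than in the 5 control libraries at an adjusted p under 0.05. At an unadjusted p under 0.05, 1249 genes were higher (7.2%) and 904 lower (5.21%), 2153 in all, where 867.2 would be expected if no gene differed. Among the higher genes were several of myeloid and other immune cells (Csf3r, Lilrb4, Fcnb, Hk3, Tagap) and the cytokine receptor Il17rb. The lower genes were Etv4, Gdf15, Cxcl14, Wrap53 and Actg2. The set of 16 depended on single libraries: it numbered 0 without vehicle 2, without nanoceria 2 or without nanoceria 3, and 137 without vehicle 1. It also depended on the method. Of the 16 genes, 2 were called with a term for sex, 5 with a term for the share of lens transcripts, 5 with no filter on low counts, 2 with scaling by library size alone and 0 with the replicate number as a block. The Wald test of DESeq2 called 420 genes higher and 105 lower on the same libraries, all 16 among them.

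Levels are given below as CPM scaled by TMM, a correction for library composition, in the 5 control libraries in the order of their numbers (1, 2, 4, 5 and 6), and as the lowest, median and highest of the 8 injected libraries. Fold changes are log2 values, injected minus control, with the standard error (SE), and adjusted p-values come from edgeR.

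Il17rb, a cytokine receptor subunit, stood at 0.547, 0.708, 0.572, 0.834 and 0.89 CPM in control. In injected eyes it ran from 1.43 over a median of 3.02 to 5.8 CPM, with no overlap. It rose by 2.23 ± 0.33 (adjusted p = 0.0401), by 1.74 in vehicle and by 2.59 in nanoceria libraries. Csf3r, the receptor for granulocyte colony-stimulating factor on neutrophils and other myeloid cells, was at 0.569, 0.668, 0.83, 0.654 and 0.677 CPM in control. Its injected libraries held 1.12 to 4.24 CPM with a median of 2.02, all above the controls. It rose by 1.77 ± 0.30 (adjusted p = 0.0494), the weakest of the 16 calls, and it was called in 6 of 26 alternative analyses.

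Lilrb4, an inhibitory receptor of myeloid cells, was present at low levels of 0.127 to 0.286 CPM in control and 0.555 to 1.19 CPM in injected eyes. It rose by 2.09 ± 0.29 (adjusted p = 0.0264), by 1.91 in vehicle and 2.26 in nanoceria. Fcnb, a ficolin of monocytes and neutrophils that can start the lectin pathway of complement, went from 0.119 to 0.286 CPM in control to 0.471 to 1.64 CPM in injected eyes (2.11 ± 0.34, adjusted p = 0.0483). Hk3, a hexokinase found mainly in myeloid cells, was at 0.234, 0.238, 0.544, 0.241 and 0.344 CPM in control and at 0.768 to 1.69 CPM after injection (1.68 ± 0.28, adjusted p = 0.0483). Tagap, a GTPase-activating protein of activated lymphocytes, was at 0.572 to 0.912 CPM in control and 0.985 to 1.82 CPM in injected eyes, and the change was 1.07 ± 0.17 (adjusted p = 0.0483). In each of these genes the lowest injected library lay above the highest control library. The genes of this paragraph, with Dnah8, Klra5_4, LOC497796 and Rn50_3_1467.1, lay under the level set for naming or had no proper symbol, and were named after their values were seen.

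Of the other genes that rose, Dennd4a, an exchange factor for a Rab GTPase, was well above the detection limit. Its control libraries held 149, 129, 102, 135 and 129 CPM and its injected libraries 166 to 240 CPM (0.57 ± 0.10, adjusted p = 0.0483). Dnah8, an axonemal dynein heavy chain, was at 0.7 to 1.42 CPM in control and at 1.64 to 2.78 CPM in injected eyes (1.15 ± 0.19, adjusted p = 0.0483). Klra5_4 carries the symbol of a family of near-identical lectin-like receptors of natural killer cells that can share reads, so its rise by 2.23 ± 0.37 is uncertain. A pair of unnamed gene models also rose, LOC497796 by 2.22 ± 0.27 (adjusted p = 0.0206), from 0.0593 to 0.155 CPM in control to 0.314 to 0.58 CPM after injection, and Rn50_3_1467.1 by 0.76 ± 0.12. LOC497796 was the gene called in the most alternatives, 20 of 26.

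Etv4, an ETS transcription factor that is switched on by ERK and FGF signalling, had the smallest adjusted p of the genes that fell. Control libraries stood at 9.98, 11.5, 10.1, 10.2 and 15.6 CPM. Injected libraries stood at 5.21 to 7.88 CPM with a median of 5.69, all below the controls, and Etv4 fell by 0.93 on the log2 scale (SE 0.13, adjusted p = 0.0264). The fall was 1.03 in vehicle and 0.83 in nanoceria libraries. Of 24 tested genes in the list of ERK and FGF signalling targets, Etv4 was the 1 called, and the median of that list was -0.05, beside -0.02 over all genes.

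Gdf15, a cytokine of the cellular stress response, was at 4.34, 6.83, 6.07, 6.86 and 6.23 CPM in control and at 2.56 to 3.88 CPM with a median of 3.14 in injected eyes. It fell by 0.93 (SE 0.14, adjusted p = 0.0401). Cxcl14, a chemokine made by many resting tissues, had control levels of 75.9, 70.9, 80.7, 55.5 and 58.6 CPM and injected levels of 38.2 to 52.7 CPM. It fell by 0.59 (SE 0.10, adjusted p = 0.0483), by 0.50 in vehicle and 0.68 in nanoceria. Wrap53, which brings telomerase RNA to Cajal bodies, fell by 0.41 (SE 0.07, adjusted p = 0.0483), from 11.6 to 14.3 CPM in control to 9.2 to 10.8 CPM after injection.

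Actg2, the gamma actin of smooth muscle, fell the most, by 2.53 (SE 0.42, adjusted p = 0.0483). Its control libraries spread widely, at 10.7, 70, 19.4, 16 and 39.4 CPM, while the injected ones lay between 2.54 and 8.5 CPM. Cnn1, another contractile gene of smooth muscle, was 9.14 to 42.7 CPM in control and 4.03 to 16.2 CPM in injected eyes and was not called (-1.38 ± 0.43, adjusted p = 0.188). The vascular smooth muscle actin Acta2, named after its values were seen, overlapped throughout, at 122 to 342 CPM and 98.3 to 325 CPM. Of 16 tested genes of pericytes and smooth muscle, 4 were lower at an unadjusted p under 0.05 and none higher. At that level 5.21% of all genes were lower and 7.2% higher. The median of the list was -0.23. Smooth muscle of the iris and ciliary body can be carried along in dissection: summed CPM of the ciliary body, iris and cornea list ran from 5390 to 15400 in control and 6530 to 12300 in injected libraries, and the part of such tissue in the result for Actg2 was not tested.

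**Figure D1:**
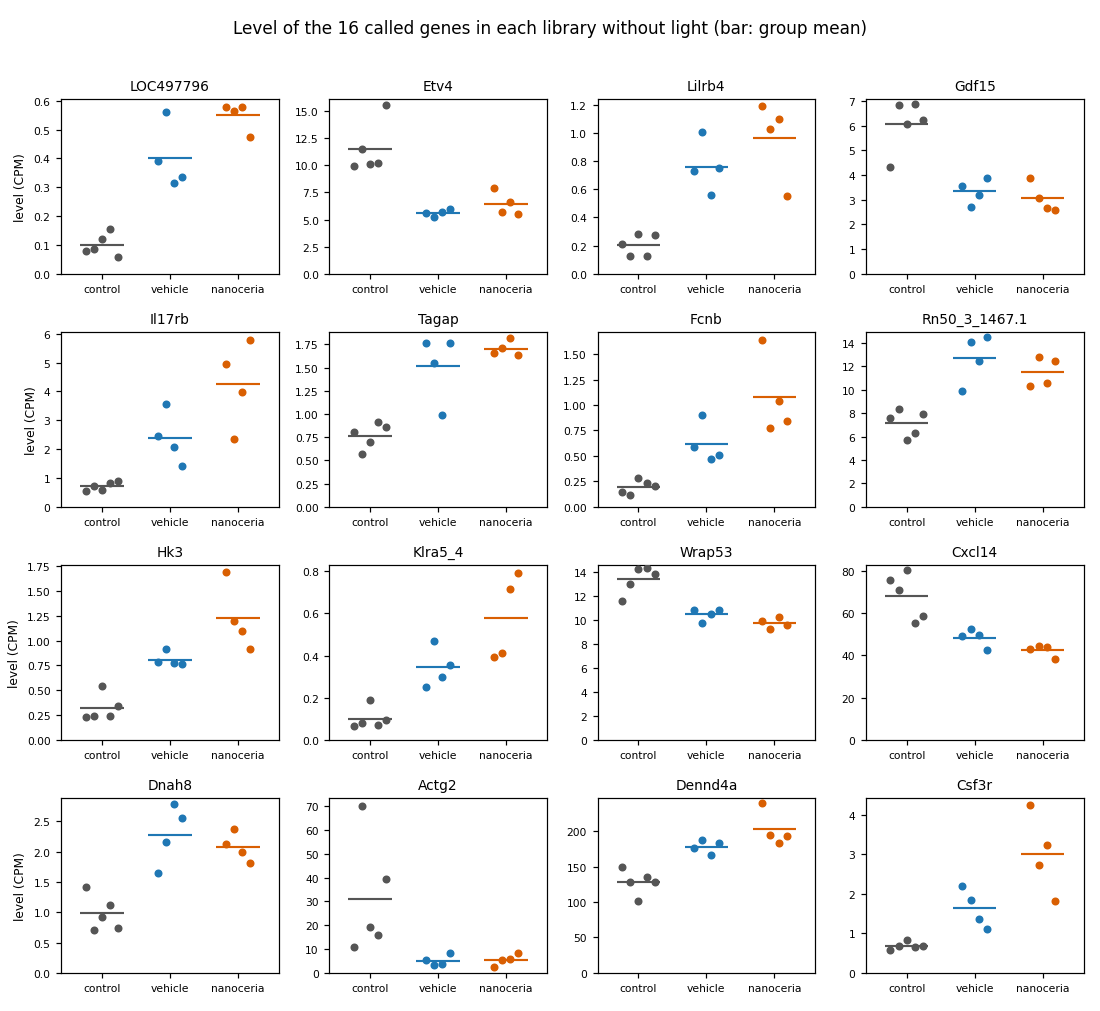
Level in TMM-scaled CPM (linear axis from 0) of each of the 16 called genes, with 1 point for each of 5 control, 4 vehicle and 4 nanoceria libraries and a bar at the group mean. In all 16 panels the injected points lie on 1 side of the control points.

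All 16 called genes separated injected from control libraries, a property that 151 of all genes tested (0.871%) shared, 115 of them higher (0.663%) and 36 lower (0.208%) in injected eyes. Because the call rests on the same libraries, nothing is read from this for the 16. Each of the 16 was called in 6 to 20 of 26 alternative analyses. Just outside the threshold lay C3ar1, the receptor of complement fragment C3a (0.93 ± 0.16, with an adjusted p just above the threshold), the chemokine Cxcl11 (2.18 ± 0.38, adjusted p = 0.0519), the Fc receptor Fcgr3a (1.68 ± 0.29, adjusted p = 0.0545) and Chi3l1 (2.29 ± 0.40, adjusted p = 0.0555).

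Gene lists showed a broader pattern than the single calls. Of 37 tested genes of microglia and macrophages, 29 were higher and 0 lower in injected eyes at an unadjusted p under 0.05, against 7.2% and 5.21% of all genes. Only Csf3r of this list passed the adjusted threshold in edgeR, while 23 of the 37 did so in DESeq2. Of the genes of the main fit, DESeq2 called 406 of 17322 higher and 100 lower. Those 2 counts are the background for each DESeq2 count of list members below. The median fold change of the list was 0.75, beside -0.02 for all genes tested. In 10 of the 37 no injected library fell to the level of any control, against 0.663% of all genes. The count of 29 varied little with the libraries used, from 26 to 29 when any 1 library was left out and from 25 to 29 over all 26 alternatives. It was 28 with a term for sex, 29 with a term for the share of lens transcripts and 27 among the libraries with high Y-linked counts alone (4 control, 3 injected).

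The members that differed included receptors and signalling adaptors of myeloid cells. Fcgr3a, an activating receptor for antibodies, stood at 1.94, 1.58, 3.61, 2.88 and 2.24 CPM in control and at 4.04 to 11.2 CPM (median 7.65) in injected eyes, without overlap. Tyrobp, the adaptor through which Trem2 signals, was at 4.71 to 6.52 CPM in control and 6.8 to 11.9 CPM in injected eyes (0.82 ± 0.15, adjusted p = 0.0562). Trem2 itself, a lipid receptor of microglia, was at 1.31 to 1.6 CPM and 1.6 to 5.06 CPM (1.16 ± 0.26, adjusted p = 0.0851). Ptprc, the CD45 phosphatase of all leukocytes, was at 5.59 to 8.4 CPM in control and 8.61 to 23.7 CPM after injection (1.07 ± 0.23, adjusted p = 0.0849). Tyrobp, Trem2 and Ptprc were named after their values were seen. In these 4 genes no injected library reached down to control, in Trem2 by a margin smaller than the rounding, and each missed the adjusted threshold.

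Aif1, the calcium-binding protein that marks microglia in tissue sections, was at 7.21, 6.39, 8.49, 8.03 and 7.32 CPM in control. Its vehicle libraries held 9.39, 12.5, 10.2 and 8.58 CPM and its nanoceria libraries 19.7, 17.4, 15.8 and 13.5 CPM, so that the arms formed 3 separate steps (0.84 ± 0.19 for injected minus control, adjusted p = 0.0892). P2ry12, the purine receptor of resting microglia, was at 2.24 to 3.44 CPM in control and 3.17 to 6.51 CPM in injected eyes, with overlap (0.78 ± 0.21, adjusted p = 0.128). Not every marker differed: Tmem119, a surface protein of resident microglia, was at 7.42 to 10.5 CPM and 5.28 to 11.9 CPM (0.12 ± 0.17), and the lysosomal Cd68 gave -0.25 ± 0.30. Both, named after their values were seen, overlapped between the arms.

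**Figure D2:**
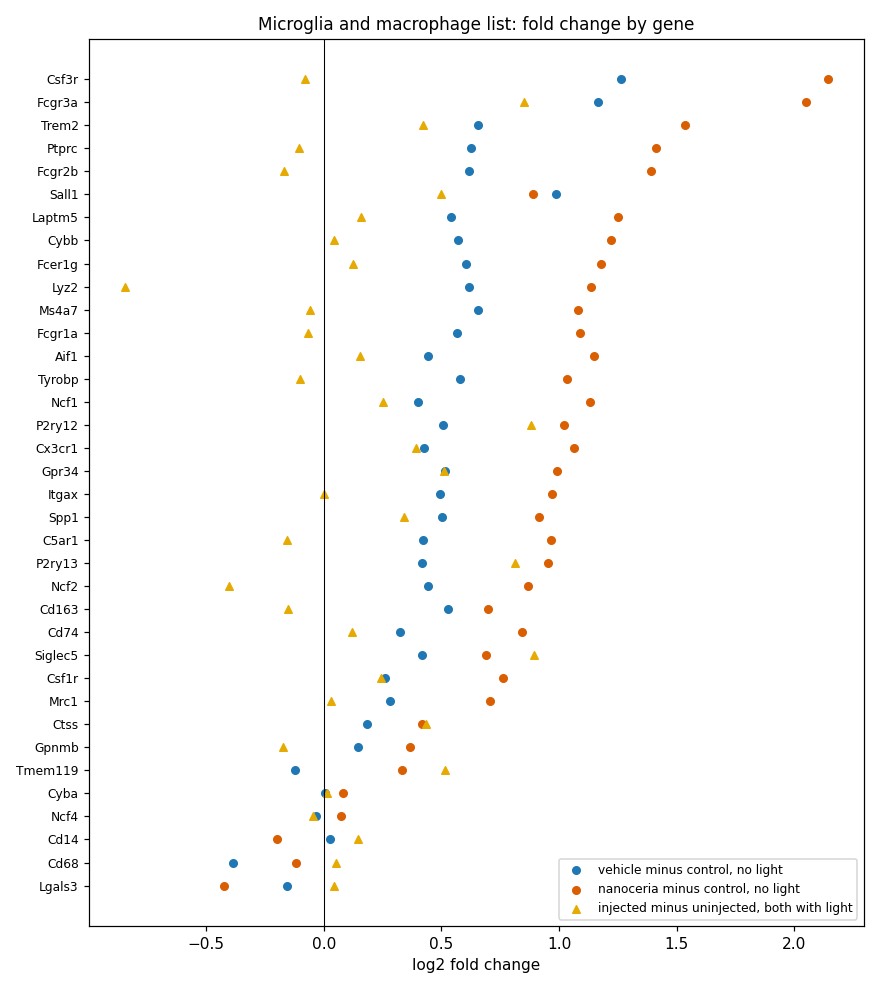
Log2 fold change of 36 of the 37 tested genes of the microglia and macrophage list, sorted by injected minus control, with 1 symbol for vehicle minus control, 1 for nanoceria minus control (both without light, with shared controls) and a triangle for injected minus uninjected under light. Most vehicle points lie right of 0, most nanoceria points further right, and the triangles scatter around the list's median of 0.12.

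Summed over the whole list, microglia and macrophage transcripts made up 796 to 1310 CPM in control, 1230 to 1260 CPM in vehicle and 1320 to 1650 CPM in nanoceria libraries, so that vehicle overlapped with control and nanoceria did not. In bulk tissue, more cells of a type and more RNA per cell cannot be told apart. Blood transcripts, which bleeding would carry in, summed to 61.2 to 101 CPM in control and 43.4 to 148 CPM in injected libraries, with overlapping ranges.

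Promoters of the microglial genes were searched for the binding word of PU.1, the ETS factor that sets up macrophage and microglial expression, because members of the list moved together. The word GAGGAAGT was sought on both strands of the RefSeq windows (rat build GRCr8, 250 bases before to 50 after each start). It was present in 2.42% of 33469 windows of all genes, which is a share of windows and not of genes. Of the 24 list members that had a window it was in 2, Fcgr3a and Ctss. The 250 bases before their starts are shown, on the plus strand in both, with the match, which reads ACTTCCTC as the reverse complement, in capitals. The start coordinates are those of GRCr8 and not of the rn6 build of the counts.
Fcgr3a (chr13:85782386-85782635): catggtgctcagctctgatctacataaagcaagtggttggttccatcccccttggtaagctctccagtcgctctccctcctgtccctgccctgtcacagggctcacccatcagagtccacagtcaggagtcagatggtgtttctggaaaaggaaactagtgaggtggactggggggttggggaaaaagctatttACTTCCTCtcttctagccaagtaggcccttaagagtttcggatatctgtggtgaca
Ctss (chr2:185775146-185775395): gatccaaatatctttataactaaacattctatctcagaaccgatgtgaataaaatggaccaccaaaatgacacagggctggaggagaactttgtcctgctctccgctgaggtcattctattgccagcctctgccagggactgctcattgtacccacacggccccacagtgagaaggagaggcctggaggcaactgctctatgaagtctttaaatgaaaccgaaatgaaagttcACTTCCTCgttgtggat
The match begins 56 bases before the start in Fcgr3a and 17 bases before it in Ctss. Ctss, the lysosomal protease cathepsin S, was at 17.4 to 21.5 CPM in control and 19.3 to 29.3 CPM in injected eyes (0.30 ± 0.10, adjusted p = 0.205). The word was in none of the 12 called genes that had a window. A match is a run of letters and was not tested as a binding site.

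Of 28 tested genes of lymphocytes, neutrophils and other leukocytes, 19 were higher and 0 lower at an unadjusted p under 0.05, against 7.2% and 5.21% of all genes. Their median was 0.85, and none passed the adjusted threshold in edgeR (8 in DESeq2). Ikzf1, a transcription factor of lymphoid cells, was at 1.18, 1.55, 1.69, 1.78 and 1.92 CPM in control and at 2.09 to 4.44 CPM in injected eyes (0.96 ± 0.21, adjusted p = 0.0851). Itgal, an integrin by which leukocytes leave vessels, was at 2.89 to 5.52 CPM and 5.66 to 17.6 CPM (1.29 ± 0.29, adjusted p = 0.0851). Both genes kept the arms apart. Cd3d, a chain of the T cell receptor complex, was close to the limit of detection, at 0.068 to 0.138 CPM in control and 0.106 to 0.81 CPM in injected eyes (1.70 ± 0.47, adjusted p = 0.141). Itgal and Cd3d were named after their values were seen. Summed over the list, leukocyte transcripts were at 68.8 to 94 CPM in control, 91.6 to 130 CPM in vehicle and 132 to 195 CPM in nanoceria libraries. The count of 19 was 15 to 20 when any 1 library was left out 12 without every library numbered 1 and 6 with the replicate number as a block.

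Of 24 tested complement genes, 15 were higher and 0 lower at an unadjusted p under 0.05, against 7.2% and 5.21% of all genes, with a median of 0.58. None passed the adjusted threshold in edgeR (11 in DESeq2). The count of 15 was 13 to 18 over the alternatives. One member is shared with the microglia list. C3ar1 stood at 1.3, 1.43, 1.77, 1.77 and 1.73 CPM in control and at 2.13 to 3.67 CPM in injected libraries, without overlap. Among the starters of the classical pathway, C1qa, named after its values were seen, was at 22.9 to 36.4 CPM in control and 35.1 to 91.8 CPM after injection (0.98 ± 0.24, adjusted p = 0.0994). C3, the central component, was at 13.8, 19.2, 26.3, 21.6 and 34.3 CPM in control. In vehicle it was at 60.6, 57.9, 47 and 28.8 CPM and in nanoceria at 310, 90.1, 120 and 42.2 CPM (2.04 ± 0.55, adjusted p = 0.133). All nanoceria libraries lay above control, and 1 vehicle library lay within it. Summed over the list, complement transcripts ran from 1870 to 2210 CPM in control and from 1990 to 3350 CPM in injected libraries.

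**Figure D3:**
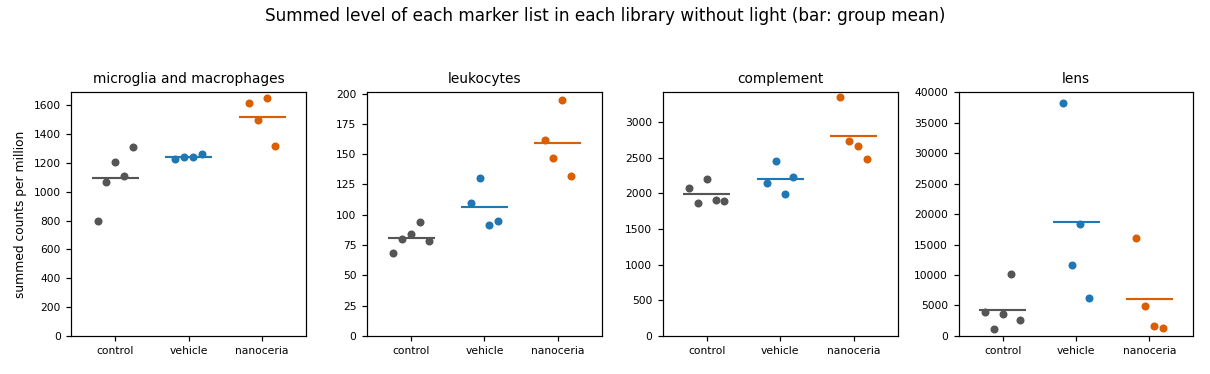
Summed CPM (linear axis from 0) of 4 marker lists in each library, with a bar at the group mean. Microglia, leukocyte and complement sums are highest in nanoceria libraries, while the lens sum is highest in vehicle 1 at 38200 CPM.

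Among markers of glial reactivity, 12 of 29 tested genes were higher and 0 lower at an unadjusted p under 0.05. Over all genes these shares were 7.2% and 5.21%, and the median of the list was 0.19. Chi3l1, a secreted glycoprotein of reactive glia and macrophages, was at 31, 17, 32, 30.8 and 33.7 CPM in control. Vehicle libraries held 66.8, 133, 91.5 and 43.8 CPM and nanoceria libraries 293, 152, 170 and 178 CPM, and no injected library reached down to control. Cp, the copper protein ceruloplasmin that Mueller glia raise after injury, was at 74.4 to 114 CPM and 127 to 367 CPM, again without overlap (1.12 ± 0.24, adjusted p = 0.0774). Gfap, the intermediate filament of reactive Mueller cells, spread from 11.8 to 109 CPM in control and from 48.7 to 334 CPM in injected eyes. Its difference of 1.63 ± 0.58 did not pass (adjusted p = 0.256). Fgf2, a survival factor for photoreceptors, was at 0.885 to 1.47 CPM and 1.21 to 3.1 CPM (0.85 ± 0.22, adjusted p = 0.126), and Edn2, an endothelin of stressed photoreceptors, at 0.0516 to 0.309 CPM and 0.138 to 0.705 CPM (1.26 ± 0.45, adjusted p = 0.256). Lif, the cytokine that acts upstream of both in light damage, differed by 0.04 ± 0.31. Bdnf, a neurotrophin, lay lower, at 6.08 to 9.32 CPM in control and 4.17 to 5.93 CPM in injected eyes (-0.64 ± 0.12, adjusted p = 0.0562).

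Of 30 tested chemokines, cytokines and their receptors, 12 were higher and 1 lower at an unadjusted p under 0.05. Over all genes these shares were 7.2% and 5.21%. The median of the list was 0.27, and Il17rb and Cxcl14 were the 2 called. Cxcl11, an attractant of T cells, was at 0.0688 to 0.19 CPM in control and 0.186 to 1.06 CPM in injected eyes, where 1 vehicle library lay within the control range. Ccl2, the main attractant of monocytes, was at 0.517 to 1.14 CPM in control and at 0.933 to 3.17 CPM (median 1.96) after injection (1.19 ± 0.28, adjusted p = 0.0939). Ccl3, named after its values were seen, was at 0.067 to 0.249 CPM and 0.281 to 0.714 CPM (1.39 ± 0.33, adjusted p = 0.0924). Of the interferon response genes, 3 of 39 (7.69%) were higher and 0 lower at an unadjusted p under 0.05, near the 7.2% of all genes on the higher side. Their median was -0.10 and ran from -0.21 to 0.30 over the alternatives.

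Sterol synthesis was the list with the largest share of members on the lower side. Of 24 tested genes of cholesterol synthesis and uptake, 17 were lower and 0 higher at an unadjusted p under 0.05, against 5.21% and 7.2% of all genes. The changes were small, with a median of -0.28, and no member passed the adjusted threshold in edgeR (4 in DESeq2). Mvd, an enzyme of the mevalonate pathway, was at 31.6 to 40.3 CPM in control and 21.7 to 30.7 CPM after injection, without overlap (-0.37 ± 0.09, adjusted p = 0.0892). The count of 17 was 11 without control 6 and 11 to 19 over the libraries left out. It was 15 with a term for sex, but 5 among the libraries with high Y-linked counts alone, where the median was -0.17. The word of the sterol regulatory element, TCACNCCAC, was in 1.12% of all promoter windows and in none of the 16 list members that had a window.

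Of the stress and clock genes, Gdf15 alone passed the adjusted threshold. For 34 genes that respond to misfolded protein or to the integrated stress pathway, the median was -0.12. Of these, 9 were lower and 1 higher at an unadjusted p under 0.05, against 5.21% and 7.2% of all genes. Beside Gdf15, these included Atf3, a factor induced by stress, at 9.47 to 31.3 CPM in control and 6.72 to 18 CPM in injected eyes (-0.89 ± 0.27, adjusted p = 0.18), and Atf4, which drives the response, at 556 to 720 CPM and 413 to 615 CPM (-0.28 ± 0.10, adjusted p = 0.263). Sesn2, an inhibitor of growth signalling, was at 31.3 to 43 CPM and 24.6 to 33 CPM (-0.38 ± 0.08, adjusted p = 0.0851). Of 21 clock genes, 9 were higher and 3 lower at an unadjusted p under 0.05, against 7.2% and 5.21% of all genes. Per2, a core repressor of the clock, was at 19.8, 25.2, 19.4, 19.3 and 24.8 CPM in control and 25.2 to 37.4 CPM (median 30.9) in injected eyes (0.53 ± 0.10, adjusted p = 0.0679). Ciart, a repressor in the same loop, was at 4.12 to 5.75 CPM and 5.52 to 9.1 CPM (0.55 ± 0.13, adjusted p = 0.0939). The sources used here do not give the hour of dissection, and its part in the clock genes was not tested.

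No photoreceptor or neuron gene of the lists passed the adjusted threshold. Of 29 tested rod genes 4 were higher and 1 lower at an unadjusted p under 0.05, with a median of 0.14. At that level 7.2% of all genes were higher and 5.21% lower. Without control 1, however, 14 rod genes were higher, against 8.86% of all genes. Gnat1, rod transducin, was at 7520 to 15200 CPM in control and 8210 to 14300 CPM in injected eyes (0.09 ± 0.17, adjusted p = 0.847). None of 15 ganglion cell genes and 2 of 22 genes of bipolar, amacrine and horizontal cells were lower at an unadjusted p under 0.05, and none was higher; without control 6, 6 ganglion cell genes were lower. Genes of the cell cycle had a median of -0.48. Of 24, 2 (8.33%) were lower at that level and none higher, near the 5.21% of all genes that were lower. The count lower was 18 without control 1, against 8.54% of all genes, and 0 without control 6.

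Lens transcripts were higher in injected eyes in every one of 26 tested lens genes, with a median of 1.82. Of these, 1 (3.85%) passed an unadjusted p under 0.05, against 7.2% of all genes on the higher side. The count was 20 without control 5, 11 without nanoceria 3 and 12 without nanoceria 5. Mip, the water channel of lens fibres, was at 13.4, 3.63, 10.5, 95.6 and 8.37 CPM in control. It was at 354, 141, 231 and 17.7 CPM in vehicle and 127, 16.9, 24.7 and 6.5 CPM in nanoceria libraries (2.13 ± 1.06, adjusted p = 0.439). Cryga, a gamma crystallin, ran from 1.23 to 14.6 CPM in control and 0.7 to 130 CPM in injected eyes. Lens genes made up 1130 to 10200 CPM in control, 6270 to 38200 CPM in vehicle and 1300 to 16100 CPM in nanoceria libraries. Their ranges overlapped. The count of 29 of 37 microglial genes was the same with the lens share in the fit. An unchanged count cannot tell the part of lens tissue in the other results, and that part was not tested.

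**Figure D4:**
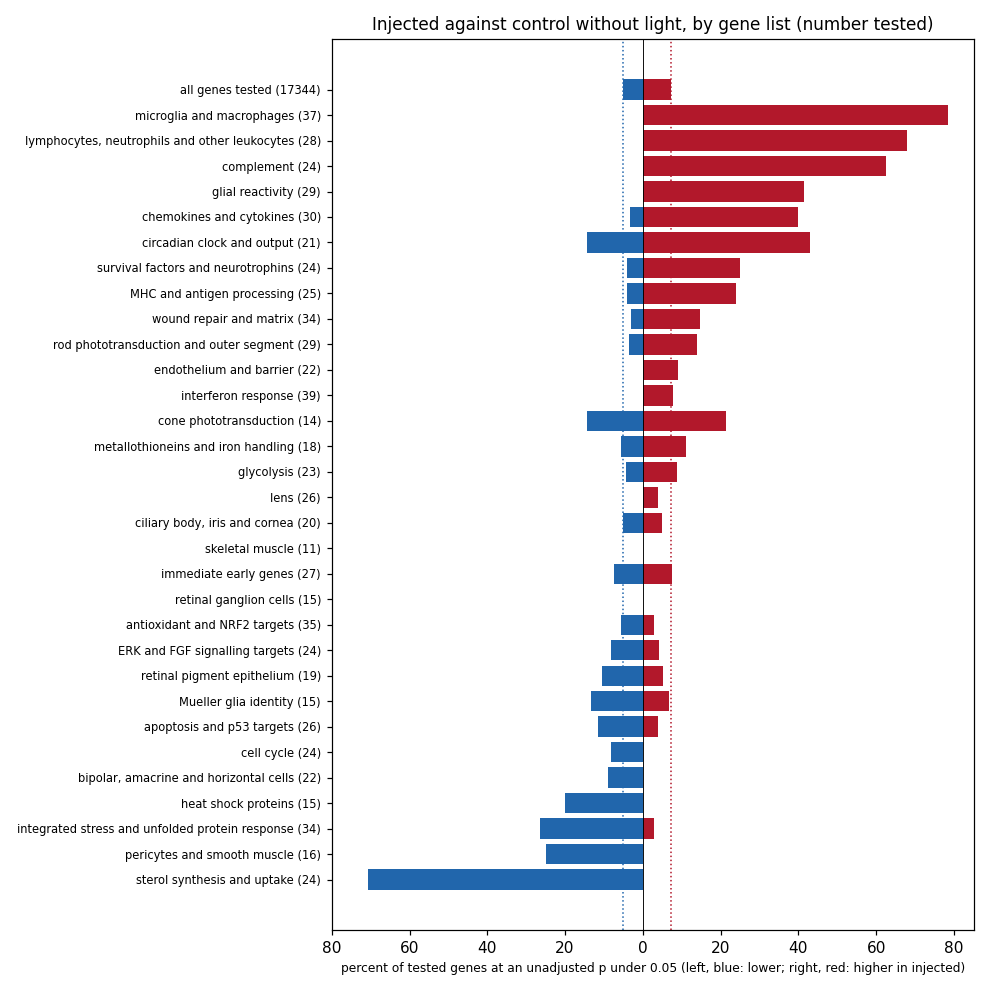
Percent of the tested genes of each list of at least 10 genes (number in brackets) with an unadjusted p under 0.05 in injected against control, higher to the right in red and lower to the left in blue. Dotted lines mark all genes tested, 7.2% higher and 5.21% lower; the microglia list reaches furthest right and the sterol list furthest left.

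Taken separately, against the same 5 controls and in a fit with 3 groups, vehicle called no gene (0%) and nanoceria called 465 (2.68%). For vehicle, 669 genes were higher (3.86%) and 337 lower (1.94%) at an unadjusted p under 0.05. For nanoceria these were 1477 (8.52%) and 1029 (5.93%). Of the 37 microglial genes, 19 were higher in vehicle and 29 in nanoceria at that level and 0 were lower in either, with medians of 0.44 and 0.97. Of the 24 complement genes, 10 were higher in vehicle and 16 in nanoceria, and of the 24 sterol genes 5 and 18 were lower. Of the 28 leukocyte genes, 5 were higher in vehicle and 22 in nanoceria. Lens genes went the other way, with 18 of 26 higher in vehicle and 1 in nanoceria, and medians of 2.46 and 0.66.

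The 2 injected groups were then set against each other in the same fit. The controls did not enter the difference, but they entered the estimate of spread. Nanoceria against vehicle called 0 of 17344 genes (0%) in edgeR. At an unadjusted p under 0.05, 680 were higher (3.92%) and 234 lower (1.35%) in nanoceria, 914 in all. Of the microglial genes 21 of 37 were higher and 0 lower in nanoceria than in vehicle at that level, with a median difference of 0.48, and of the leukocyte genes 13 of 28 were higher and 0 lower. Of the 26 lens genes 0 had a positive difference, with a median of -1.76, and 1 was lower at that level. Of the 16 called genes 12 had the larger change in nanoceria. The difference was 0.88 for Csf3r (95% interval 0.32 to 1.45) and 0.84 for Il17rb (0.18 to 1.51, adjusted p = 0.683). For Etv4 the difference was 0.20 with an interval from -0.14 to 0.53, and for Actg2 0.10 with an interval from -1.10 to 1.31.

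The contrast of injected with uninjected eyes was repeated in the light-exposed rats, whose libraries are separate from those above. All 18050 genes of that fit included the 16. Injection under light called 57 genes (0.316%), 17 higher and 40 lower. None of the 16 was among those called with the same sign. Their sign was the same in 7 of 16, and 2, Il17rb and Dennd4a, passed an unadjusted p under 0.05 with the same sign. At that level 884 genes were higher (4.9%) and 849 lower (4.7%) under light. Of the 37 microglial genes 10 were higher and 1 lower, with a median of 0.12, of the 28 leukocyte genes 1 was higher and 1 lower, and of the 24 sterol genes 3 were lower.

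The uninjected eyes exposed to light had levels of their own that differed from the unexposed controls. Csf3r was 2.25 higher, Lilrb4 2.44 and Fcnb 5.66 on the log2 scale in light damage than in control. Il17rb and Dennd4a, which kept their sign at an unadjusted p under 0.05, were also higher in light damage than in control. Dennd4a stood at 428 to 554 CPM in light damage and at 102 to 149 CPM in control. The part of these starting levels in the second contrast was not tested. Il17rb stood at 2.91 to 4.77 CPM in 6 light damage libraries, at 4.48 to 9.2 CPM in 5 vehicle plus light libraries and at 4.32 to 8.44 CPM in 5 nanoceria plus light libraries (0.56 ± 0.21 for injected minus uninjected, adjusted p = 0.369). Etv4 was at 8.25 to 11.5 CPM without injection, 9.98 to 12.6 CPM with vehicle and 8.02 to 13.2 CPM with nanoceria under light (0.06 ± 0.12, adjusted p = 0.907). The light-exposed libraries of Etv4 lay near its unexposed controls, above all 8 unexposed injected ones.

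The difference between the injection effect without and with light was tested as an interaction, which called 36 of 18050 genes (0.199%). At an unadjusted p under 0.05, 795 differences were positive (4.4%) and 935 negative (5.18%). Of the 16 genes, 6 had a called difference: LOC497796, Etv4, Il17rb, Fcnb, Wrap53 and Dnah8. The 16 were selected on their effect without light, which is 1 term of this difference. That selection makes a called difference likelier, so nothing is read from the count of 6. For Etv4 the difference was -0.995 ± 0.17 (adjusted p = 0.0103), for Il17rb 1.59 (adjusted p = 0.0306) and for Fcnb 4.01 (adjusted p = 0.0324). Cxcl11 had the smallest p of all genes, with a difference of 2.89 ± 0.42 (adjusted p = 0.006). It was 2.18 higher with injection without light and 0.75 lower with injection under light. Chi3l1 differed by 1.97 ± 0.34 (adjusted p = 0.0103). Of the microglial genes 15 of 37 had a larger effect without light at an unadjusted p under 0.05 and 0 a smaller one. Of the leukocyte genes these were 13 of 28 and 0. Both lists are reported here for their higher counts without light, which is 1 term of this difference, so nothing is read from these counts.

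**Figure D5:**
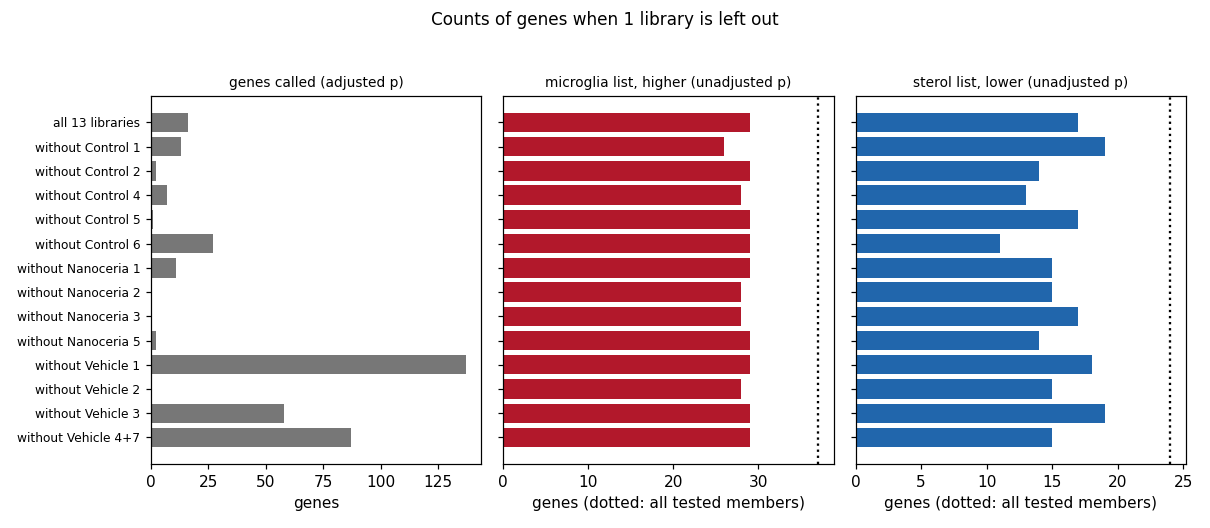
Number of genes called at an adjusted p under 0.05 (left), microglial genes higher (middle) and sterol genes lower (right) at an unadjusted p under 0.05, in injected against control with all 13 libraries and with each library left out. The calls range from 0 to 137, whereas the microglial count stays between 26 and 29 of 37 and the sterol count between 11 and 19 of 24.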

How the data were processed

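Retinal polyA RNA from rats was sequenced, and the deposited table holds raw counts per gene, not normalised as far as the values show. Per the submitters' processing notes, Trimmomatic 0.39, STAR 2.7.9a, featureCounts of Subread 2.0.1, DESeq2 1.30.1 and R 4.0 were used, with the rn6 build; the strand setting and annotation release were not given in the sources used here. Of 42 labelled samples 31 have a column and the others were not analysed here. Of 32623 genes, 10261 had 0 counts in the 14 unexposed columns.

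Near-identical libraries (dispersion under 0.1 of the median of other pairs) were summed. Injected and control libraries were compared with edgeR 4.0.16 in R 4.3.3 (filterByExpr set to min.count 10 and min.total.count 15, TMM, robust quasi-likelihood fit), with Benjamini-Hochberg adjustment over all genes tested. The standard error is the log2 fold change divided by the square root of F. The contrasts by agent used a fit with 3 groups, and those under light and the interaction used 1 fit of all libraries, where the effect without light differs slightly from the main one. Nothing beyond the label of biological replicate says how animals and eyes relate, so p-values measure the spread between these libraries.

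The 33 gene lists hold 811 members, 771 matched by symbol, 6 through the RefSeq table and 34 unmatched. The genes named were the 12 largest changes in each direction among called genes with a mean log2 CPM of at least 1 and a proper symbol, 2 members of each list with the smallest adjusted p, and 20 set genes; others are said to have been named after their values were seen, and a few that the rule names are not reported here. The comparison, members and lists were chosen with earlier results of these data known. Alternatives were other scalings, no filter, DESeq2 1.42.0, limma 3.58.1 (voom), the near-identical libraries kept apart, other sets of libraries in the fit, terms for sex, lens share or replicate number, and leaving out libraries. The fit was tested on simulated counts.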

Additional observations from a re-analysis of the deposited data

Results flagged for a closer look

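The test of the difference was looked up here for the 16 called genes and the set genes only. In 8 of them the injection effect differed between unexposed and light-exposed eyes. Over all 18050 genes that test called 36. The 16 were selected on their effect without light, which is 1 term of the difference, so their calls here are not independent of that choice. Chi3l1 and Cxcl11 are set genes, chosen with earlier results of these data known. The difference (without minus with light, log2) was 2.31 for LOC497796, -0.995 for Etv4, 1.59 for Il17rb, 4.01 for Fcnb, -0.51 for Wrap53, 2.40 for Dnah8, 1.97 for Chi3l1 and 2.89 for Cxcl11. Adjusted p-values of edgeR were between 0.00600 and 0.0324.

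In 129 sets of values, each 1 gene or marker sum in 1 group, 11 had a library far from the others. The cut-off used gives about 1 in 20 for independent, normally distributed values. Its rate for these CPM values was not measured, so nothing is read from the count of 11. Several involve lens genes: Cryga stood at 130 CPM in vehicle 1 (next library 10.1) and at 14.6 CPM in control 5 (next 3.17), and Mip at 95.6 CPM in control 5 (next 13.4) and 127 CPM in nanoceria 1 (next 24.7). Etv4 was at 15.6 CPM in control 6 (next 11.5), on the far side of the injected libraries. Chi3l1 was low in control 2, at 17 CPM (next 30.8). Cxcl11 was at 1.06 CPM in nanoceria 1 (next 0.529) and P2ry12 at 5.66 CPM in vehicle 2 (next 3.43). The remaining sets were LOC497796 at 0.476 CPM in nanoceria 5 (next 0.563), Hk3 at 0.915 CPM in vehicle 2 (next 0.782) and Klra5_4 at 0.191 CPM in control 4 (next 0.0949).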

How the results depend on the processing

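The number of genes called depended strongly on the analysis, with 11 higher and 5 lower as reported. Under other choices the calls higher and lower were 17 and 5 (DESeq2 size factors), 2 and 0 (library size alone), 3 and 2 (no filter), 420 and 105 (Wald test of DESeq2), 52 and 29 (limma-voom), 26 and 12 (vehicle 4 and 7 as 2 libraries), 137 and 25 (3 group coefficients), 72 and 33 (all libraries in 1 fit), 1 and 1 (term for sex), 6 and 1 (term for lens share) and 30 and 13 (without every library numbered 1). With the replicate block, which the numbers do not justify as a pairing, they were 0 and 0, with 1843 genes at an unadjusted p under 0.05. Same-numbered libraries of different groups correlated between -0.145 and 0.278 over 9 pairs, 5 of them over 0.1, so the numbers were not taken to pair animals. Among libraries with high Y-linked counts alone, an alternative chosen after seeing the data, they were 0 and 0, with 1735 genes at that level. Leaving out each library in turn gave 0 to 102 higher and 0 to 35 lower.

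Injection under light called 57 genes as reported, 88 with near-identical pairs kept as 2 libraries each, 35 with the replicate block and 24 to 92 with 1 library left out. The difference between the effects without and with light called 36, then 55, 19 and 11 to 71 in the same order, and 14 with a term for sex. Nanoceria against vehicle called 0 to 2 with 1 library left out and 0 otherwise. Without control 2, the 2 genes called were none of the 16. The cause of these changes was not tested. For injected against control, 137, 58 and 87 genes were called without vehicle 1, vehicle 3 and the summed vehicle 4 and 7, and 0 without vehicle 2. Low genes such as Lilrb4 or Fcnb rest on few counts per library. Lilrb4 was called in 18 of 26 alternatives and Fcnb in 10. At an unadjusted p under 0.05, the microglial count (25 to 29 of 37) and the complement count (13 to 18 of 24) stayed within 1.5 times the reported ones. So did the higher counts of glial reactivity (9 to 14 of 29) and of chemokines and cytokines (10 to 14 of 30). Several other lists did not. Over the alternatives 6 to 20 of 28 leukocyte, 1 to 20 of 26 lens and 0 to 18 of 29 rod genes were higher. On the lower side were 5 to 19 of 24 sterol, 0 to 20 of 24 cell cycle and 0 to 8 of 15 ganglion cell genes. DESeq2's adjusted p was missing for some low genes, which were left out of its counts.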
